A study of Homo sapiens with 12 samples.

Results

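The genes described here are 6 transcription factors, ZIC2, ZIC5, OTX2, SALL1, SALL2 and SALL3, followed in a table of 62753 genes from H9 cells, a human embryonic stem cell line. Their rows were taken by gene name, and all 6 genes have a row in the table. The 6 genes were chosen with earlier results of these data known. RNA sequencing was done in 12 libraries, 3 in each of 4 groups. The siOGA libraries have the genotype label OGA knockdown. The siP300+OGA libraries carry the label OGA overexpression, and their name also holds the EP300 siRNA. The siP300 libraries have the label EP300 knockdown, and the siNC libraries are labelled WT. All 12 share 1 growth label, the naive culture PXGL, although the titles of the siP300+OGA libraries, unlike the others, lack that word. PXGL is named for the kinase inhibitor PD0325901, the tankyrase inhibitor XAV939, the protein kinase C inhibitor Gö6983 and the cytokine LIF, and the cells were grown on a layer of mouse embryonic fibroblasts. OGA, or O-GlcNAcase, strips O-linked N-acetylglucosamine off intracellular proteins. EP300 acetylates histones and other proteins at enhancers and promoters. The comparisons ask what each siRNA did to naive cells and what differed when OGA was added to the EP300 siRNA. Nothing in the labels ties the 3 libraries of a group to separate cultures, so p-values measure the spread between these libraries only.

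Human pluripotent cells can be held in a naive state, which resembles the epiblast before implantation, or in a primed state, which resembles the epiblast after it. ZIC factors are zinc finger proteins that bind DNA in enhancers, and OTX2 is a homeodomain factor that drives the exit from the naive state in mouse and later patterns the anterior neural plate. SALL factors are zinc finger proteins that recruit the NuRD chromatin remodelling and deacetylase complex. ZIC2, ZIC5, OTX2, SALL1, SALL2 and SALL3 are known for higher levels in primed than in naive human cells, while their relative SALL4 is used in both states.

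The promoters are shown for the 2 pairs of members whose levels moved alike, ZIC2 with ZIC5 and OTX2 with SALL3. Each line holds the 250 bases before the first start listed for the gene in RefSeq (GRCh38.p14), of 3 listed for ZIC5, 2 for OTX2 and 1 for ZIC2 and SALL3, read 5′ to 3′ on the gene's strand. Capitals mark matches, on either strand, to 4 letter strings, which are spelled out after the sequences.
ZIC2 (chr13:99981534-99981783, plus strand): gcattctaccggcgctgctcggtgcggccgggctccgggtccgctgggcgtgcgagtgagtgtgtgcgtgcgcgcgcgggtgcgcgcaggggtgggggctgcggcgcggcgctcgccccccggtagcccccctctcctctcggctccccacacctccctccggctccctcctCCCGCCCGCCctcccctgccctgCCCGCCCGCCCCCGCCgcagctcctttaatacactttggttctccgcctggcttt
ZIC5 (chr13:99971910-99972159, minus strand): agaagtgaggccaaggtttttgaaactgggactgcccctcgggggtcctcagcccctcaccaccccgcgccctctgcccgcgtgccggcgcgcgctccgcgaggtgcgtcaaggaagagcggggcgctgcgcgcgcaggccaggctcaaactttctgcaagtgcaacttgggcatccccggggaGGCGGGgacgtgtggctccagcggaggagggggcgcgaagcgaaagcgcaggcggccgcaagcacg
OTX2 (chr14:56810480-56810729, minus strand): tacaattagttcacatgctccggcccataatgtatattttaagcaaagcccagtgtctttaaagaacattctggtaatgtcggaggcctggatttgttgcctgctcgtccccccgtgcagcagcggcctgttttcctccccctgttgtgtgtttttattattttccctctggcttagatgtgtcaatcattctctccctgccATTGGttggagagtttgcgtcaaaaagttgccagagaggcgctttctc
SALL3 (chr18:78979568-78979817, plus strand): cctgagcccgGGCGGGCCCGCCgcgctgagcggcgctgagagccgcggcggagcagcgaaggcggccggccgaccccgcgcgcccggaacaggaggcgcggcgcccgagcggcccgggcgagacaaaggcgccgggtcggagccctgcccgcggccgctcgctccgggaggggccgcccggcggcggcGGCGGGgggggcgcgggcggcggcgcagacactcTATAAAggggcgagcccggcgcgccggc
Entries were found for 5 of the 6 members, SALL1 being the exception. Over 27303 promoters of this length, 33.0% held CCAAT, the CCAAT box, and 11.1% held TATAAA, the TATA box. A further letter string, TAATCC, a motif of OTX-type homeodomains, was held by 5.67%, and GGCGGG, the GC box, by 42.3%. The ZIC2 stretch held 5 GC boxes, some overlapping, and 31 CpG pairs with 75.6% G and C, and the ZIC5 stretch held 1 GC box and 28 CpG pairs with 70.4% G and C. The SALL3 stretch held a TATA box 28 bases before the start, 3 GC boxes and 49 CpG pairs, while the OTX2 stretch held a CCAAT box on the other strand and 7 CpG pairs. The median over all promoters was 11 CpG pairs and 58% G and C. The SALL2 stretch, at 3 CpG pairs and 46.0% G and C, held none of the 4 letter strings. The OTX2 stretch lies inside the gene span of the deposited table, which ends at base 56816693, so its counts hold for the printed start only. Part of the SALL2 stretch (chr14:21537122-21537371, minus strand) also lies inside the deposited gene span, which ends at base 21537216. Its counts likewise hold for the start used only.

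The libraries held 16238225 to 18714572 reads in genes, recovered from the FPKM values (fragments per kilobase, scaled to library size). The OGA transcript stood at 8.10 ± 0.771 FPKM in siOGA, 43.8 ± 0.741 in siP300+OGA, 39.8 ± 1.97 in siP300 and 40.5 ± 0.432 in siNC (SD, n = 3 each, as for all means below). OGA therefore did not pass the test in siP300+OGA against siP300, although those libraries are labelled as overexpressing it (0.13 ± 0.05, log2 difference ± SE, limma adjusted p = 0.0636). Nothing in the labels says whether RNA of the added OGA would be counted in this row. EP300 stood at 23.5 ± 0.520 FPKM in siOGA, 15.4 ± 0.329 in siP300+OGA, 13.3 ± 0.108 in siP300 and 23.2 ± 0.355 in siNC. It was thus lower by 0.76 on the log2 scale in siP300 than in siNC. EP300 was higher in siP300+OGA than in siP300 (0.20 ± 0.03, limma adjusted p = 0.000182). In that comparison, the added OGA and this smaller loss of EP300 cannot be told apart. The 5 core pluripotency genes POU5F1, SOX2, NANOG, LIN28A and SALL4 were at 1 FPKM or more in every group and summed to 927 to 1065 FPKM in siOGA, 995 to 1037 in siP300+OGA, 700 to 733 in siP300 and 919 to 962 in siNC. The 5 fibroblast markers summed to at most 1.17 FPKM in any library. These are human genes and the feeder layer was mouse, so the low sum is no measure of feeder RNA.

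The 6 genes did not behave as a block, and 3 patterns were seen. ZIC2, ZIC5 and SALL1 were high in siOGA, also above control in siP300, and low in siP300+OGA. Within this pattern, siOGA stood 7.1-fold above siP300 for ZIC2 but only 1.18-fold for SALL1. SALL2 was above control in all 3 treated groups, by at least 3.17-fold. SALL1 was also above control in siP300+OGA, but by 1.79-fold, whereas ZIC2 was below control there. OTX2 and SALL3 were lowest in siOGA and highest in siP300. In each of the 6 pairings of groups, all 6 members had groups that did not overlap. Such separation was common: it held for 68.6% of all tested genes in siOGA against siNC, 70.9% in siP300 against siNC, 59.6% in siP300+OGA against siP300, 67.7% in siP300+OGA against siNC, 75.0% in siOGA against siP300 and 75.4% in siOGA against siP300+OGA.

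Tests were made with limma on log2(FPKM + 1) over the 13166 genes whose mean over the libraries reached 1 FPKM, and a gene was called at an adjusted p under 0.05 (Benjamini-Hochberg). All 6 comparisons share libraries with others, so their results are not independent of each other. Of the members, 5 were tested, and ZIC5 was below the minimum. ZIC2 and SALL1 reached that minimum only through the groups where they were high. In siOGA against siNC, 3 of the 5 rose and 2 fell, where 66.9% of all tested genes were called, 34.0% higher and 32.9% lower. In siP300 against siNC, all 5 rose, where 65.9% were called, 30.2% higher and 35.7% lower. In siP300+OGA against siP300, all 5 fell, where 48.2% were called, 27.0% higher and 21.2% lower. In siP300+OGA against siNC, 4 rose and 1 fell, where 60.9% were called, 30.8% higher and 30.2% lower. In siOGA against siP300, 2 were higher and 3 lower, where 74.1% were called, 39.3% higher and 34.8% lower. In siOGA against siP300+OGA, 2 were also higher and 3 lower, where 73.9% were called, 37.8% higher and 36.1% lower. In bulk RNA, more or fewer cells that express a gene and more or less RNA of it per cell cannot be told apart. All 5 passed in each of the 6 comparisons, as did 12.5% of the tested genes.

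**Figure D1:**
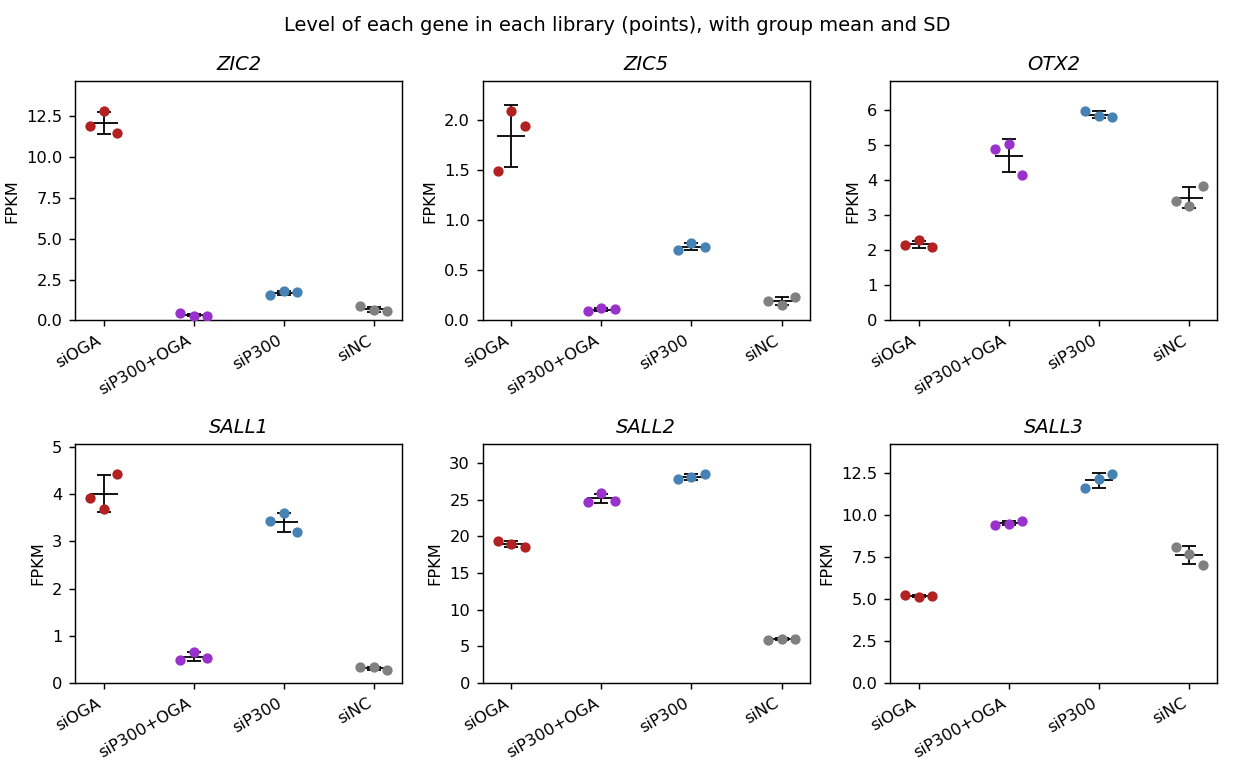
Level of each gene in FPKM (y axis, linear from 0) in siOGA, siP300+OGA, siP300 and siNC (x axis). Points are the 3 libraries of a group, and the black bars are the mean and SD. ZIC2 ranged from 11.5 to 12.8 FPKM in siOGA and stayed at or below 1.80 in the other groups, while SALL2 was lowest in siNC, at 5.84 to 6.04 FPKM.

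ZIC2, which binds distal enhancers in pluripotent cells, was the member with the largest response to the OGA siRNA. Its level was 11.9, 12.8 and 11.5 FPKM in siOGA, 0.429, 0.270 and 0.292 in siP300+OGA, 1.56, 1.80 and 1.73 in siP300, and 0.861, 0.631 and 0.548 in siNC. The siOGA libraries stood far above all others, and the siP300+OGA libraries below all others. In means this was 12.1 ± 0.689 FPKM in siOGA, 0.330 ± 0.0858 in siP300+OGA, 1.70 ± 0.125 in siP300 and 0.680 ± 0.162 in siNC. The siOGA mean was 17.8-fold the siNC mean, and the difference of 2.96 ± 0.08 on the log2 scale (adjusted p = 3.54e-10) was the 10th largest rise of the comparison. This rank depends on the expression minimum, which ZIC2 reached only through its level in siOGA. The rise was smaller with the EP300 siRNA, 2.50-fold in siP300 over siNC (0.69 ± 0.08, adjusted p = 1.88e-05). The siOGA libraries were higher than the siP300 libraries by 2.28 ± 0.08 (adjusted p = 1.14e-09).

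With OGA added to the EP300 siRNA, ZIC2 fell by 1.02 ± 0.08 on the log2 scale relative to siP300 (adjusted p = 2.62e-06), a mean 5.14-fold lower. The siP300+OGA mean was also 2.06-fold lower than the siNC mean (−0.33 ± 0.08, adjusted p = 0.0041). The 22 tested genes of the same 20 Mb of chromosome 13 (80 to 100 Mb) had a median 0.15 below that of all genes in siP300+OGA against siNC, and 0.23 below in siP300+OGA against siP300. ZIC2 lies at the end of this fixed window, which therefore covers 1 side of it. Over the 203 tested genes of chromosome 13 the median was 0.07 and 0.24 below, in the same order. With such regional medians removed, the difference of ZIC2 in siP300+OGA against siNC was −0.16 and no longer passed (adjusted p = 0.173).

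ZIC5 is the neighbour of ZIC2, encoded head to head with it. The gene (ENSG00000139800) lies on the minus strand of chromosome 13, bases 99962964 to 99971767 in GRCh38, and ZIC2 (ENSG00000043355) on the plus strand, bases 99981784 to 99986765, so that their starts are 10017 bases apart. ZIC5 was measured at 1.50, 2.10 and 1.94 FPKM in siOGA, 0.0915, 0.119 and 0.113 in siP300+OGA, 0.703, 0.771 and 0.730 in siP300, and 0.194, 0.150 and 0.233 in siNC. The order of the groups was that of ZIC2, siOGA above siP300, siNC and siP300+OGA, with no overlap. These levels rest on 104 to 154 reads per library in siOGA, 7 to 9 in siP300+OGA, 60 to 62 in siP300 and 12 to 18 in siNC. The 95% counting intervals (exact Poisson, counting error only) of the lowest libraries of siP300+OGA and siNC overlapped, at 2.81 to 14.4 reads for 7 and 6.2 to 20.96 for 12.

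In a fit with no expression minimum, ZIC5 rose by 1.25 ± 0.09 on the log2 scale in siOGA against siNC (adjusted p = 2.09e-06) and by 0.54 ± 0.09 in siP300 against siNC (adjusted p = 0.000746). It fell by 0.65 ± 0.09 in siP300+OGA against siP300 (adjusted p = 0.000469). In siP300+OGA against siNC the difference of −0.11 had a 95% interval of −0.30 to 0.09 and did not pass (adjusted p = 0.48). The addition of 1 FPKM compresses changes of a gene at this level: the FPKM means differed 9.60-fold in siOGA over siNC, 3.82-fold in siP300 over siNC, and were 6.82-fold lower in siP300+OGA than in siP300.

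The neighbours did not change by the same factor. ZIC2 stood at 6.67 ± 1.13 times the level of ZIC5 per length in siOGA, 3.18 ± 1.31 times in siP300+OGA, 2.31 ± 0.0794 times in siP300 and 3.67 ± 1.15 times in siNC. The ratio in siOGA, 5.91 to 7.97 over the libraries, lay above every other library, the highest of which was 4.69. Between the genes lies the long non-coding RNA ENSG00000288060, at 10, 3 and 12 reads in siOGA, 0 in each siP300+OGA library, 1, 2 and 1 in siP300 and 0 in each siNC library. It is named here after its values were seen. Beyond ZIC5, the long non-coding RNA ENSG00000286757, also named after its values were seen, summed to 125 reads in siOGA, 22 in siP300+OGA, 45 in siP300 and 39 in siNC. PCCA-DT, 66309 bases beyond ZIC2 and the only other gene within 100 kb to reach 1 FPKM, stood at 2.50 ± 0.150 FPKM in siOGA, 2.18 ± 0.160 in siP300+OGA, 2.06 ± 0.183 in siP300 and 1.82 ± 0.381 in siNC. It rose by 0.32 on the log2 scale in siOGA against siNC (adjusted p = 0.0107).

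**Figure D2:**
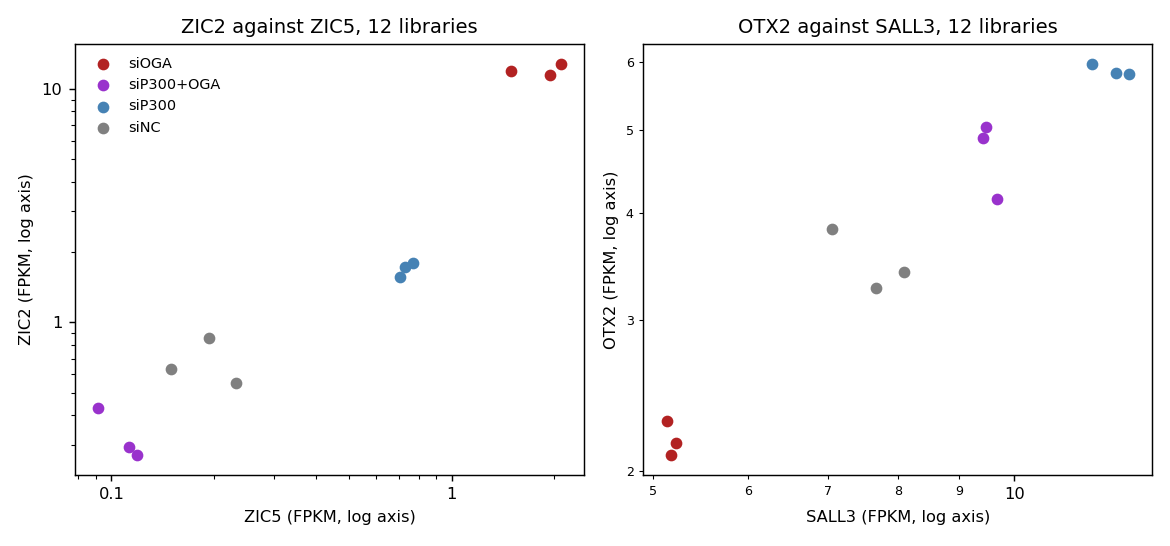
Level of ZIC2 against ZIC5 (left) and of OTX2 against SALL3 (right), in FPKM on log axes, 1 point per library, coloured by group. ZIC2 was 5.91 to 7.97 times ZIC5 in siOGA and 2.22 to 4.69 times in the other groups, while OTX2 was 0.403 to 0.544 times SALL3 in all 12 libraries.

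SALL1, a SALL factor best known from the developing kidney, limbs and ear, was high with either siRNA alone. It was measured at 3.91, 3.68 and 4.43 FPKM in siOGA, 0.485, 0.659 and 0.529 in siP300+OGA, 3.42, 3.60 and 3.20 in siP300, and 0.337, 0.329 and 0.268 in siNC. The siOGA and siP300 libraries formed an upper set and the others a lower set. The gene (ENSG00000103449) lies on chromosome 16, bases 51135982 to 51152334, minus strand, and 2 long non-coding RNAs overlap it.

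The SALL1 mean was 12.9-fold higher in siOGA than in siNC (1.93 ± 0.07 on the log2 scale, adjusted p = 3.51e-09) and 10.9-fold higher in siP300 than in siNC (1.75 ± 0.07, adjusted p = 5.07e-09). With OGA added it was 6.11-fold lower in siP300+OGA than in siP300, a fall of 1.50 ± 0.07 (adjusted p = 7.72e-08). A small excess over control was left, 0.557 ± 0.0905 FPKM in siP300+OGA and 0.311 ± 0.0380 in siNC (0.25 ± 0.07, adjusted p = 0.0134). This last call was lost without the second siP300+OGA library, at 0.20 (adjusted p = 0.054). The difference of 0.18 ± 0.07 in siOGA against siP300 (adjusted p = 0.0422) was also near the threshold, and 12 of the 25 alternatives placed it above (adjusted p = 0.0124 to 0.168).

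SALL2, the SALL family member furthest from the others in sequence, was above control in every treated group and was the most abundant of the 6 there. Its level was 19.3, 19.0 and 18.5 FPKM in siOGA, 24.7, 25.9 and 24.9 in siP300+OGA, 27.8, 28.1 and 28.6 in siP300, and 5.84, 6.04 and 6.04 in siNC. The siNC libraries were far below the other 9, and siP300 was highest. The means were 18.9 ± 0.393 FPKM in siOGA, 25.2 ± 0.660 in siP300+OGA, 28.1 ± 0.399 in siP300 and 5.97 ± 0.116 in siNC.

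Against siNC, SALL2 rose 3.17-fold in siOGA (1.52 ± 0.03 on the log2 scale, adjusted p = 5.36e-11), 4.71-fold in siP300 (2.06 ± 0.03, adjusted p = 2.87e-12) and 4.21-fold in siP300+OGA (1.91 ± 0.03, adjusted p = 1.77e-11). Among the rises of each comparison by size, that in siOGA ranked 147th, that in siP300 70th and that in siP300+OGA 34th. Where OGA was added, SALL2 fell by 0.16 ± 0.03 relative to siP300 (adjusted p = 0.00157), which left it 4.21-fold above siNC, whereas SALL1 was left at 1.79-fold. SALL2 (ENSG00000165821) lies on chromosome 14, bases 21521080 to 21537216, minus strand. The median of the 107 tested genes in the same 20 Mb was above that of all genes by 0.22 in siP300 against siNC and by 0.17 in siP300+OGA against siNC. Its nearest expressed neighbour METTL3, which encodes an RNA methyltransferase, stood at 10.1 ± 0.470 FPKM in siOGA, 9.79 ± 0.310 in siP300+OGA, 11.2 ± 0.261 in siP300 and 7.37 ± 0.216 in siNC. Against siNC, METTL3 rose by 0.41 on the log2 scale in siOGA (adjusted p = 5.65e-06), by 0.54 in siP300 (adjusted p = 5.18e-07) and by 0.37 in siP300+OGA (adjusted p = 1.58e-05). The other 3 neighbours that reach 1 FPKM did not share that pattern. In siOGA against siNC, where SALL2 rose, the remodeller gene CHD8 differed by −0.17 (adjusted p = 0.00156) and TOX4 by −0.20 (adjusted p = 0.0135), although both were higher in siP300 than in siNC, by 0.35 for CHD8 (adjusted p = 8.3e-06) and 0.17 for TOX4 (adjusted p = 0.0302). RAB2B, a small GTPase gene, rose by 0.58 in siOGA against siNC (adjusted p = 1.56e-05) and did not pass in siP300+OGA against siNC (0.05, adjusted p = 0.548).

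OTX2 moved the other way under the OGA siRNA. It was measured at 2.15, 2.29 and 2.09 FPKM in siOGA, 4.89, 5.05 and 4.16 in siP300+OGA, 5.98, 5.83 and 5.81 in siP300, and 3.42, 3.27 and 3.84 in siNC. The siOGA libraries were below and the siP300 and siP300+OGA libraries above every siNC library. OTX2 was thus 1.61-fold lower in siOGA than in siNC (−0.50 ± 0.07 on the log2 scale, adjusted p = 4.8e-05) and 1.67-fold higher in siP300 than in siNC (0.61 ± 0.07, adjusted p = 9.73e-06).

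With OGA added, OTX2 fell by 0.27 ± 0.07 relative to siP300 (adjusted p = 0.00565) and remained 1.34-fold above siNC (0.34 ± 0.07, adjusted p = 0.00109). The largest gap was between the siRNAs, −1.12 ± 0.07 in siOGA against siP300 (adjusted p = 5.39e-08). OTX2 (ENSG00000165588) lies on the minus strand of chromosome 14, bases 56799905 to 56816693. The antisense OTX2-AS1, which overlaps it, stood at or below 0.0197 FPKM in every group mean.

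SALL3, a SALL factor used in neural development, followed OTX2. Its level was 5.23, 5.14 and 5.18 FPKM in siOGA, 9.42, 9.48 and 9.68 in siP300+OGA, 11.6, 12.2 and 12.5 in siP300, and 8.10, 7.67 and 7.05 in siNC. The order of the groups was the same as for OTX2, and again no groups overlapped. SALL3 was 1.47-fold lower in siOGA than in siNC (−0.48 ± 0.05 on the log2 scale, adjusted p = 3.79e-06), and 1.59-fold higher in siP300 than in siNC (0.60 ± 0.05, adjusted p = 4.74e-07). It fell by 0.31 ± 0.05 in siP300+OGA against siP300 (adjusted p = 0.000207), and was 1.25-fold higher in siP300+OGA than in siNC (0.29 ± 0.05, adjusted p = 0.000202).

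SALL3 (ENSG00000256463) lies on the plus strand of chromosome 18, bases 78979818 to 79002677. The 34 tested genes of its 20 Mb region had a median 0.21 below that of all genes in siOGA against siNC, and with regional medians removed the SALL3 difference was −0.24 (adjusted p = 0.000478). Its neighbour ATP9B, a membrane flippase gene 66608 bases away, was at 1.69 ± 0.147 FPKM in siOGA, 2.10 ± 0.0543 in siP300+OGA, 1.83 ± 0.161 in siP300 and 2.70 ± 0.0673 in siNC, so it was also lower in siOGA (−0.46, adjusted p = 4.7e-05). ATP9B was lower in siP300 than in siNC too, by 0.39 on the log2 scale (adjusted p = 0.000165), where SALL3 rose. The long non-coding RNA LINC01896, 744 bases from SALL3, rose by 0.68 in siP300 against siNC (adjusted p = 0.00275). LINC01896 did not pass in siOGA against siNC (0.13, adjusted p = 0.496), where SALL3 fell. Nor did it pass in siP300+OGA against siNC (0.28, adjusted p = 0.156), where SALL3 rose.

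OTX2 and SALL3 lie on different chromosomes. The ratio of OTX2 to SALL3 per length was 0.420 ± 0.0226 in siOGA, 0.494 ± 0.0561 in siP300+OGA, 0.487 ± 0.0255 in siP300 and 0.464 ± 0.0693 in siNC, while each gene alone spanned more than 1 on the log2 scale between siOGA and siP300. By the root mean square difference of their profiles over the 12 libraries, relative to siNC, SALL3 was 3rd most like OTX2 of 11888 other genes, and OTX2 was 10th most like SALL3. With a pseudocount of 0.1 in place of 1 these ranks were 8th and 18th. A smaller difference means a closer profile, and the value for this pair was 0.101 on the log2 scale. The joint pattern of a fall in siOGA and a rise in siP300, both against siNC, was held by 7.66% of the tested genes. The pattern of ZIC2, SALL1 and SALL2, a rise in both, was held by 14.4%. Both comparisons use the same siNC libraries, so the calls of a gene in them are not independent.

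**Figure D3:**
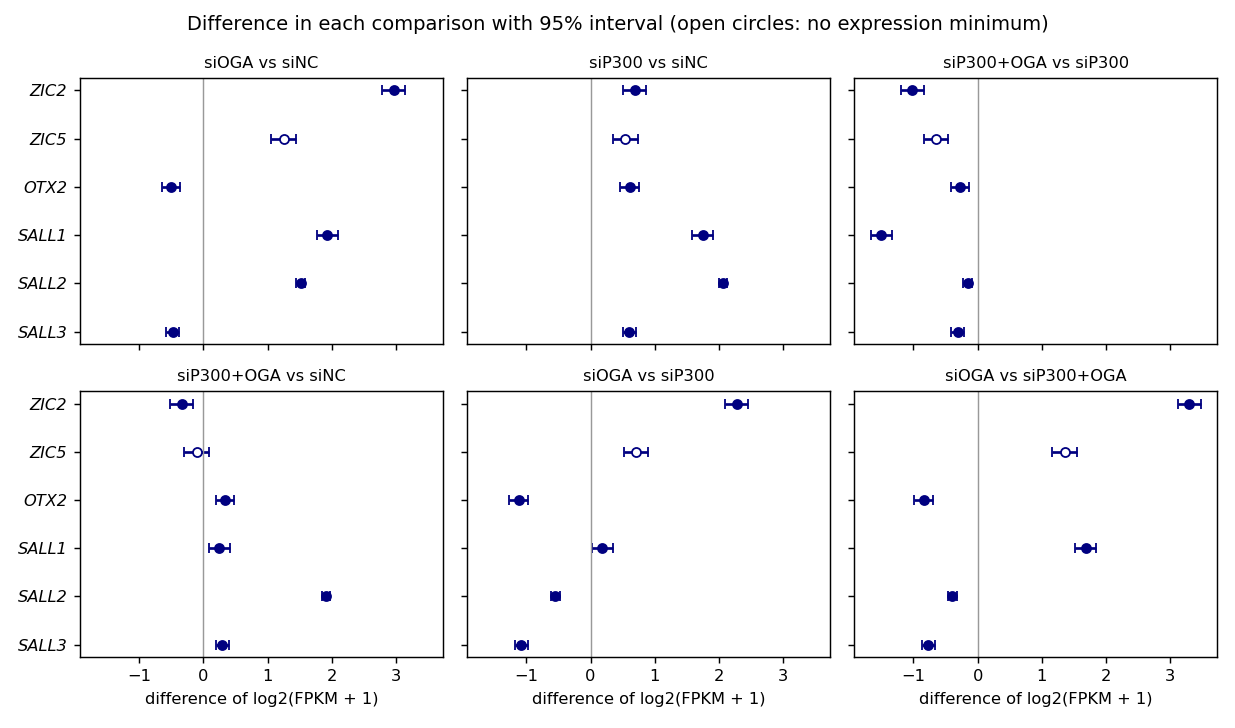
Difference of log2(FPKM + 1) between groups (x axis) for the 6 genes (rows) in 6 comparisons (panels), with 95% intervals from the fit. Filled circles are from genes that reach a mean of 1 FPKM and open circles (ZIC5) from the fit with no minimum. The interval of ZIC5 in siP300+OGA against siNC, −0.30 to 0.09, includes 0, and OTX2 and SALL3 lie left of 0 in siOGA against siNC.

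Of the family relatives, ZIC1 had a mean over the 12 libraries of 0.0443 FPKM and ZIC4 of 0.00671. The OTX2 relative OTX1 had a mean of 0.0636 FPKM and CRX of 0.00854.

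SALL4, a core pluripotency factor, stood at 56.4 ± 1.10 FPKM in siOGA, 63.3 ± 1.81 in siP300+OGA, 44.3 ± 1.28 in siP300 and 47.9 ± 0.340 in siNC. The summed level of SALL1 to SALL4 was 84.5 ± 0.768 FPKM in siOGA, 98.5 ± 2.51 in siP300+OGA, 87.9 ± 1.26 in siP300 and 61.8 ± 0.755 in siNC. SALL4 made up 66.7% ± 0.694 of that sum in siOGA, 64.2% ± 0.271 in siP300+OGA, 50.4% ± 0.959 in siP300 and 77.5% ± 0.513 in siNC. SALL2 made up 22.4% ± 0.611 in siOGA, 25.6% ± 0.300 in siP300+OGA, 32% ± 0.673 in siP300 and 9.66% ± 0.265 in siNC. Of the 4 genes, SALL2 thus gained the most FPKM over siNC in each treated group, with SALL4 also above control in siOGA and siP300+OGA (0.23 ± 0.03, adjusted p = 4.99e-05, and 0.39 ± 0.03, adjusted p = 9.02e-07).

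**Figure D4:**
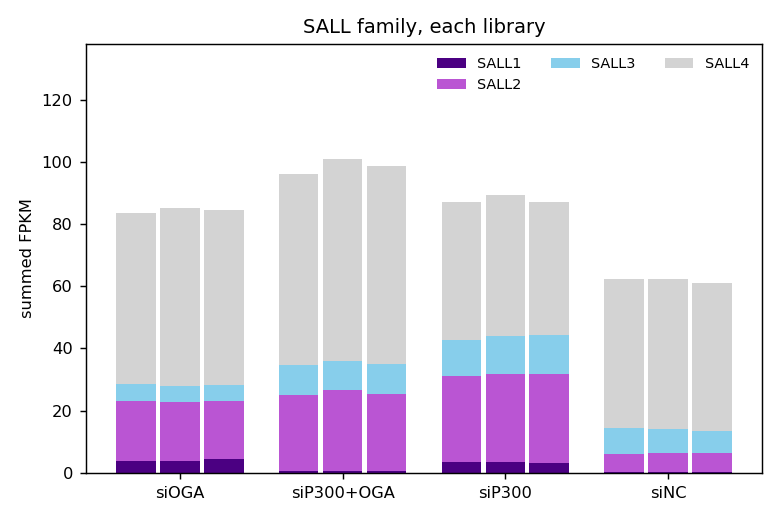
Summed FPKM of SALL1 to SALL4 (y axis), 1 stacked bar per library, in groups of 3 libraries (x axis). SALL4 (grey) made up 50.4% (siP300) to 77.5% (siNC) of the sum in group means, and SALL2 made up 22.4% of the sum in siOGA, 25.6% in siP300+OGA, 32% in siP300 and 9.66% in siNC.

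Other genes of the primed state were followed as a list. Of its 16 genes, which leave out the members, 14 were tested. In siOGA against siNC, 12 rose and 2 fell, with a median of 1.48 on the log2 scale against 0.01 for all tested genes. In siP300 against siNC, 13 rose and 1 fell, with a median of 1.42 against −0.04 for all. Of all tested genes, 34.0% were called higher in siOGA against siNC and 30.2% in siP300 against siNC. In siP300+OGA against siP300, 5 rose, 6 fell and 3 did not pass, and in siP300+OGA against siNC 10 rose, 2 fell and 2 did not pass. The WNT modulator SFRP2 rose most, to 23.7 ± 1.68 FPKM in siOGA, 20.9 ± 0.595 in siP300+OGA and 16.8 ± 0.847 in siP300, against 0.812 ± 0.274 in siNC. The WNT receptor FZD7 likewise reached 21.2 ± 1.29 FPKM in siOGA, 20.02 ± 1.45 in siP300+OGA and 24.4 ± 0.392 in siP300, against 1.896 ± 0.174 in siNC. Both, like SALL2, were above control in all 3 treated groups.

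The pattern of SALL1 had counterparts in that list in VIM, an intermediate filament, and CDH2, the adhesion protein N-cadherin, both named after their values were seen. VIM was at 7.60 ± 0.295 FPKM in siOGA, 0.945 ± 0.0912 in siP300+OGA, 15.0 ± 0.801 in siP300 and 0.863 ± 0.177 in siNC. CDH2 was at 3.88 ± 0.125 FPKM in siOGA, 0.262 ± 0.0350 in siP300+OGA, 3.57 ± 0.0562 in siP300 and 0.414 ± 0.0535 in siNC. A rise in siP300 against siNC with a fall in siP300+OGA against siP300 was held by 13.3% of the tested genes, and by all 5 tested members. Both comparisons use the same siP300 libraries with opposite sign, so a high siP300 level alone can give both calls. The members were also chosen with earlier results known, so their count is a description and no test. The 2 listed genes that fell in siOGA, like OTX2 and SALL3, were NLGN4X, an adhesion protein of synapses, by 0.78, and the DNA methyltransferase DNMT3B, by 0.72 (adjusted p = 6.99e-07 and 8.39e-09). NLGN4X rose by 0.30 in siP300 against siNC (adjusted p = 0.000949), as OTX2 and SALL3 did, while DNMT3B fell there by 1.07 (adjusted p = 2.85e-10).

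**Figure D5:**
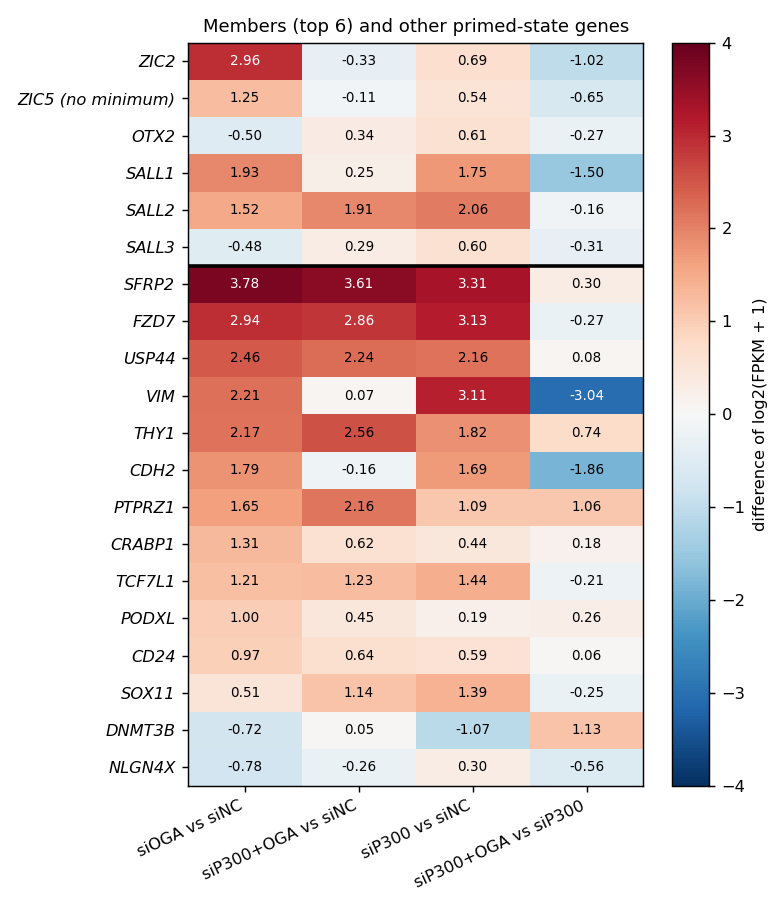
Difference of log2(FPKM + 1) in 4 comparisons (columns) for the 6 members (top rows) and the 14 tested genes of the other primed-state list, ordered by siOGA against siNC. Red is higher and blue lower in the group named first, with the value in each cell. SALL1, VIM and CDH2 are positive in siOGA and siP300 against siNC and negative in siP300+OGA against siP300, at −1.50, −3.04 and −1.86.

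Of 12 naive-state genes, 11 were tested. In siOGA against siNC 9 fell and 2 did not pass, with a median of −0.78, where 32.9% of all tested genes were called lower. In siP300 against siNC all 11 fell, with a median of −1.21, where 35.7% were called lower. In siP300+OGA against siNC all 11 fell, with a median of −1.24, where 30.2% were called lower. The medians of all tested genes were 0.0055, −0.04 and −0.0025, in the same order. The naive factor KLF17 fell by 2.34 in siOGA (adjusted p = 2.04e-10) and by 1.49 in siP300 (adjusted p = 2.8e-09) against siNC, and DNMT3L, a cofactor of DNA methylation, by 1.52 and 1.17 (adjusted p = 1.03e-09 and 5.23e-09). In siP300 against siNC, DPPA3, a maternal factor, differed by −1.95 and SUSD2, a surface marker, by −1.74 (adjusted p = 8.39e-11 and 2.01e-10). In siP300+OGA against siP300, 6 of the 11 rose, 2 fell and 3 did not pass, where 27.0% of all tested genes were called higher and 21.2% lower.

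The 13 NuRD genes, whose complex SALL proteins recruit, were all tested. In siOGA against siNC 3 rose, 4 fell and 6 did not pass, and in siP300 against siNC 7 rose and 6 fell, with medians of 0.00 and 0.12. Of all tested genes, 66.9% were called in siOGA against siNC and 65.9% in siP300 against siNC. MBD3, a core subunit, and CHD3, a remodelling ATPase, fell in siOGA and rose in siP300 against siNC, as OTX2 and SALL3 did. MBD3 was at 7.65 ± 1.11 FPKM in siOGA, 17.4 ± 0.329 in siP300+OGA, 16.4 ± 0.854 in siP300 and 11.8 ± 1.13 in siNC. CHD3 was at 2.31 ± 0.118 FPKM in siOGA, 6.09 ± 0.357 in siP300+OGA, 5.83 ± 0.219 in siP300 and 3.22 ± 0.0918 in siNC. In siOGA against siNC, GATAD2B rose by 0.53 (adjusted p = 2.14e-06) and MTA3 by 0.28 (adjusted p = 0.00011). In siP300 against siNC, MTA2 rose by 0.65 (adjusted p = 5.57e-07), while RBBP4 fell by 0.44 (adjusted p = 1.72e-06) and MBD2 fell by 0.43 (adjusted p = 0.000171).

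The genes with the profiles most like each member were ranked by the same root mean square difference. For ZIC2 they included KDR, a VEGF receptor, and GALNT17, a glycosyltransferase. KDR was at 13.5 ± 0.835 FPKM in siOGA, 1.59 ± 0.130 in siP300+OGA, 1.71 ± 0.165 in siP300 and 1.80 ± 0.116 in siNC. For SALL1 they were CCN2, a matricellular protein, UGT8, a galactosyltransferase, and TAC1, a neuropeptide precursor. CCN2 stood at 41.7 ± 1.53 FPKM in siOGA, 11.1 ± 0.243 in siP300+OGA, 32.7 ± 0.749 in siP300 and 8.56 ± 0.559 in siNC. For SALL2 they were TRERF1, a transcriptional regulator, FKBP10, a collagen-folding isomerase, and KRT18, a keratin. For OTX2 they were MZF1, a zinc finger factor, DSC2 and SALL3, and for SALL3 AGPAT3, an acyltransferase, DSC2 and TMEM198B. The difference from ZIC2 was 0.5 for KDR and 0.51 for GALNT17, and the differences ran from 0.143 to 0.170 for SALL1, 0.224 to 0.259 for SALL2, 0.075 to 0.101 for OTX2 and 0.060 to 0.075 for SALL3, on the log2 scale. DSC2, the desmosomal cadherin desmocollin-2, stood in both lists, at 4.36 ± 0.137 FPKM in siOGA, 7.91 ± 0.360 in siP300+OGA, 10.5 ± 0.0633 in siP300 and 6.23 ± 0.245 in siNC. These lists depend on the pseudocount: with 0.1 in place of 1, of the genes named here only UGT8 for SALL1 and DSC2 for OTX2 and SALL3 remained among the 3 most like.

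Markers of other cell types were followed as lists. Of 10 neuroectoderm markers, only HESX1 reached 1 FPKM in siOGA, siP300 and siNC, and PAX6 was at 0.0660 ± 0.00533 FPKM in siOGA, 0.0123 ± 0.00877 in siP300+OGA, 0.0638 ± 0.0117 in siP300 and 0.000906 ± 0.00157 in siNC. The summed level of these 10 was 7.51 to 8.04 FPKM in siOGA, 5.08 to 7.67 in siP300+OGA, 5.13 to 6.003 in siP300 and 5.63 to 7.47 in siNC. HESX1, the largest part of that sum, fell by 0.66 in siP300 against siNC (adjusted p = 0.000844). The other neuroectoderm markers were below the minimum. Of those, EN1 and SOX1 had lower means in siP300 than in siNC and the rest had higher means, with SIX3 at 0.743 ± 0.204 FPKM in siP300. The 5 trophectoderm markers summed to 2.44 to 3.23 FPKM in siOGA, 1.24 to 1.38 in siP300+OGA, 13.1 to 14.8 in siP300 and 2.00 to 2.27 in siNC. In siP300 none of these 5 was at 0, CGA, a hormone subunit of the placenta, was at 9.22 ± 0.907 FPKM, and CDX2 was at 0.104 ± 0.0711. GATA3 was at 2.205 ± 0.0471 FPKM in siP300 and 0.301 ± 0.118 in siNC, and VGLL1 at 0.903 ± 0.110 and 0.0131 ± 0.0227. The 5 primitive streak and mesoderm markers summed to 2.21 to 2.52 FPKM in siOGA, 5.92 to 7.44 in siP300+OGA, 5.54 to 5.75 in siP300 and 2.45 to 2.53 in siNC. In siP300 against siNC, MIXL1 of this list rose by 1.51 (adjusted p = 5.82e-08) and TBX6 fell by 0.40 (adjusted p = 0.00179), and the other 3 were below the minimum. The 5 neural crest markers summed to 4.69 to 5.92 FPKM in siOGA, 5.54 to 6.11 in siP300+OGA, 4.23 to 5.06 in siP300 and 2.80 to 3.71 in siNC. Of these, FOXD3 rose by 0.69 in siP300 against siNC (adjusted p = 0.0011) and SOX10 did not pass (−0.12, adjusted p = 0.147). The 5 endoderm markers, all below the minimum, summed to 0.694 to 0.935 FPKM in siOGA, 1.06 to 1.60 in siP300+OGA, 1.196 to 1.47 in siP300 and 0.513 to 0.793 in siNC. The 5 fibroblast markers, also below it, summed to 0.388 to 0.585 FPKM in siOGA, 0.0167 to 0.125 in siP300+OGA, 1.04 to 1.17 in siP300 and 0.105 to 0.239 in siNC, with DCN at 0 in siP300. The summed levels of the trophectoderm, primitive streak, neural crest, endoderm and fibroblast lists were thus all higher in siP300 than in siNC with no overlap. Of these lists, only the trophectoderm list had a higher mean in siP300 for each gene. EOMES and TBX6 of the primitive streak list, PAX3 and SOX10 of neural crest, SOX17 of endoderm, and DCN and POSTN of fibroblast had lower means. The neuroectoderm sums of siP300 and siNC overlapped, and the core pluripotency sum was lower in siP300. All 6 members were also higher in siP300 than in siNC with no overlap. Groups did not overlap there, in either direction, for 70.9% of tested genes, among which ZIC5 is not counted. The share that was higher with no overlap was not computed, and 30.2% of tested genes were called higher. The part of the listed cell types in the member results was not tested.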

How the data were processed

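RNA was sequenced from 12 libraries of H9 cells as poly(A) RNA with molecular identifiers and strand marking, per the labels' protocols. The build GRCh38 and the tools HISAT2 2.0.4, StringTie 1.3.4d, cutadapt 1.9 and UMI-tools stand in the submitters' processing notes, without their roles. The strand setting of the counting was not stated, which makes overlapping genes uncertain. The authors deposited FPKM values per gene. In the table, 1 of the lines was emptied for this work. Of the values, 100% were whole multiples of a step per library within 0.01, which gave the reads (or fragments) behind them. The authors' scaling factor was 0.935 to 1.06 of the summed reads.

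Groups were compared with limma 3.58.1 (R 4.3.3, trend option) on log2(FPKM + 1), in 1 model of all 12 libraries (8 residual degrees of freedom), a mean of at least 1 FPKM (13166 genes), two-sided, with Benjamini-Hochberg adjusted p under 0.05. The pseudocount of 1 understates changes of low genes. An FPKM fold is a ratio of group means. ZIC5 was fitted without the minimum. The fit was tested on simulated data. Alternatives were pseudocounts, minimums, scaling, sample weights, a replicate block, regional medians removed and each library left out. Replicate pairs differed by more than sampling noise (chi-square per degree of freedom 2.03 to 6.08), which does not show that they were separate cultures. Each library counted as 1 sample.

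Members and lists were chosen with earlier results of these data known, and the promoter letter strings after the files were read. Besides members and relatives, genes named were those within 100 kb that reach 1 FPKM in a group mean, the 2 largest rises and falls of each list, and the 3 genes with the smallest root mean square difference from a member. Of the genes this rule names, 2 are not reported here.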

Additional observations from a re-analysis of the deposited data

How the results depend on the processing

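Over 36 results (6 genes in 6 comparisons) and 900 alternative values, 883 kept direction and side of the threshold, 16 lost the call and 1 changed sign. Many of these values could not change direction. Leaving out a library of a group not compared, a replicate block or another minimum left the difference itself unchanged and moved only its p-value. With regional medians removed, ZIC2 in siP300+OGA against siNC was −0.16 (adjusted p = 0.173), and ZIC5 there was 0.074, neither value passing the test (adjusted p = 0.514). The cause was not tested. SALL1 in siP300+OGA against siNC was 0.065 with a pseudocount of 5 and 0.25 in a fit of only those groups (adjusted p = 0.105 and 0.0518), and 0.20 to 0.28 with 1 library left out.

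SALL1 in siOGA against siP300 lost its call with a pseudocount of 0.1 (0.23, adjusted p = 0.153), with no expression minimum (0.18, 0.0769), with sample weights (0.15, 0.0752), in a fit of only those groups (0.18, 0.0577) and with regional medians removed (0.17, 0.0567), and ran from 0.12 to 0.23 with 1 library left out (adjusted p = 0.0269 to 0.168).

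Replicate numbers did not pair the libraries: over 18 pairings of same-numbered libraries the correlation of their deviations was −0.058 to 0.131, above 0.1 in 1. With the replicate block the SALL1 value in siOGA against siP300 was 0.18 (adjusted p = 0.0637), and the block ended no other call of a member.

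With a mean of at least 5 FPKM, ZIC2, ZIC5, OTX2 and SALL1 had no value, and fewer genes (7018) were tested. ZIC5 rests on 7 to 9 reads per library in siP300+OGA, which limits that value. On recovered reads (voom, added after seeing the data, as was averaging 2 siP300+OGA libraries), ZIC5 differed by 3.24 in siOGA against siNC and by −0.78 in siP300+OGA against siNC (adjusted p = 0.176).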
